A study of Homo sapiens with 30 samples.

Results

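The genes described here build the neuronal cytoskeleton or serve axon growth: STMN2, GAP43, NEFL, NEFM, INA, PRPH, TUBB3, MAP2, MAPT and DCX. They were taken by name, 10 of the 68608 gene identifiers in the tables of the series, with earlier results of these data known. Neurons carry a scaffold of microtubules, built from alpha and beta tubulin and held together by microtubule-associated proteins, beside a network of intermediate filaments that sets the width of the axon. Neuroblastoma arises from the sympathoadrenal lineage of the neural crest, and its adrenergic cells express many genes of this neuronal scaffold and can extend neurites when they differentiate. Each gene was followed in 3 neuroblastoma lines in which the long non-coding RNA NESPR was targeted, so the comparisons ask how the neuronal scaffold genes differ when it is.

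The cells were 3 established lines, SK-N-BE(2)c, NGP and IMR32. They were lipofected at 100 nM with an antisense oligonucleotide (ASO), a short synthetic strand designed to pair with an RNA. The 4 ASOs were ASO1, ASO2 and ASO10, which were directed at NESPR, and a negative control called NCA. IMR32 had 4 libraries each of ASO1, ASO2 and NCA, and NGP and SK-N-BE(2)c had 3 libraries each of ASO2, ASO10 and NCA, 30 libraries in 9 groups. All groups went through transfection, including the controls. The labels give no time of harvest, and they do not say whether replicates were separate transfections, so p-values measure only the spread between these libraries, which may be technical. The control columns of SK-N-BE(2)c and NGP spell replicate 1 differently from replicates 2 and 3, and the labels do not say why. Libraries came from 1 of 2 kits, a stranded total RNA kit or a stranded mRNA kit, and the kit of each library is not given.

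Values are read counts per gene divided by a size factor for each library, called normalized counts here. The whole reads could be recovered from them, and a library held between 9393587 and 15060356 reads. In IMR32, replicate 1 of each group stood apart from the others of its group. Its counts differed from theirs by a chi-square per degree of freedom of 2.63 to 7.33, against 1.27 to 2.37 among replicates 2 to 4, and results that change without these 3 libraries are given both ways. Control replicate 3 of NGP also stood apart, at 4.99 and 7.45 from replicates 1 and 2, which differed from each other by 2.61. In the other groups of NGP and SK-N-BE(2)c this measure ran from 2.31 to 5.36. IMR32 was scaled alone, and NGP and SK-N-BE(2)c were scaled together, so levels are set side by side only between the latter. All 8 markers of adrenergic neuroblastoma on a list that includes DBH and TH were above 3 reads in every line, with summed normalized counts of 14477 to 32593 per library. TH, the first enzyme of catecholamine synthesis, was low in IMR32, at 20.1 to 32.96. Of the Schwann cell markers, SOX10 did not exceed 3 reads in any line, and the 5 markers summed to 11.1 to 99.9 per library. Of 3 astrocyte markers only AQP4, and of 4 immune markers only the T cell marker CD3E, stayed at or under 3 reads in every line. The astrocyte markers summed to 0 to 25.9 per library and the immune markers to 3.65 to 56.2. The 8 mesenchymal markers summed to 709 to 1035 in SK-N-BE(2)c and 2000.8 to 2619 in NGP. In IMR32, scaled alone, they summed to 2729.8 to 3353. TWIST1 was the highest of them in each line, at 551 to 816, 1209 to 1759 and 1438 to 2137 in that order. PRRX1 and COL1A2 did not exceed 5.92 normalized counts in any line.

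The lines differed in which of the 10 genes stood highest. Levels are given in counts per kilobase of exon, so that genes of different length can be set side by side. The exon lengths may differ from those of the gene models used in counting. STMN2 led in SK-N-BE(2)c controls at 6355 ± 490.2 (SD, n = 3) and NEFM followed at 2425 ± 138. PRPH at 1236 ± 28.2 came next, then GAP43 at 991 ± 48.5 and INA at 949 ± 11.3, whose libraries overlapped. MAP2 at 325 ± 8.68, DCX at 61.1 ± 1.54, TUBB3 at 32.1 ± 2.32 and MAPT at 24.0 ± 0.398 closed the order without overlap. NGP controls also had STMN2 first, at 2133 ± 148 per kilobase, but INA second at 1810.0 ± 63.2. NEFM at 609 ± 14.5 and GAP43 at 594 ± 5.32 overlapped there, as did PRPH at 251 ± 25.8 and MAP2 at 244 ± 36.2. DCX lay between these pairs at 516 ± 49.4, TUBB3 was at 74.7 ± 9.62, and MAPT was last at 2.19 ± 0.363 per kilobase, only 30 to 38 reads per library. DCX therefore ran from 516 per kilobase in NGP controls to 61.1 in SK-N-BE(2)c controls, and MAPT the other way.

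In IMR32 controls the order was INA at 661 ± 20.2 per kilobase (SD, n = 4), NEFM at 579.8 ± 26.6, DCX at 408 ± 21.6 and MAP2 at 247 ± 2.52, each apart from the next. STMN2 at 207 ± 12.1 and NEFL at 200.1 ± 14.1 overlapped. MAPT at 57.6 ± 2.52, TUBB3 at 51.5 ± 5.49, GAP43 at 45.7 ± 5.78 and PRPH at 36.6 ± 4.22 formed a run in which each overlapped the next. NEFL was analysed only in IMR32 and was not analysed here in the other lines. Some counts have a limit from overlapping genes, since the sources used here do not state whether counting used strand. An antisense gene shares 38.9% of the exon bases of NEFM and another 56.2% of those of PRPH, and a read-through gene shares 35.8% of the exon bases of TUBB3 on the same strand.

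**Figure D1:**
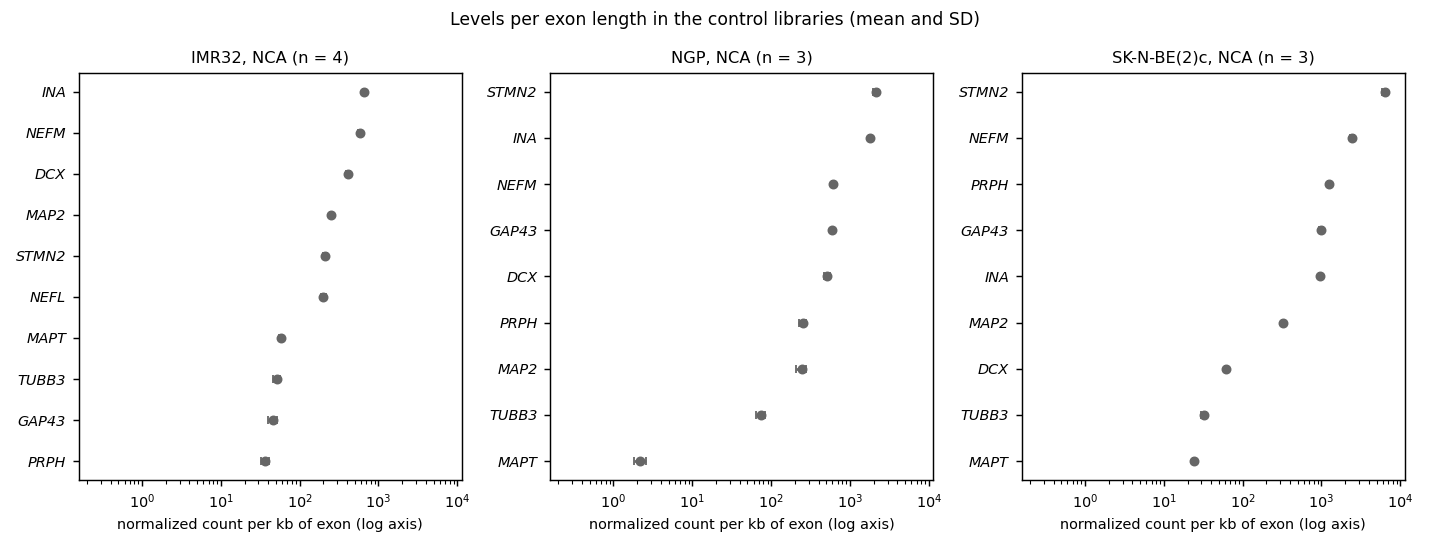
Mean normalized count per kilobase of exon (log axis) of each gene in the control libraries of each line, with the SD as bars (n = 4 in IMR32, n = 3 in the others). INA is highest in IMR32 and STMN2 in the other lines, and MAPT in NGP is at 2.19 per kilobase.

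One promoter is shown because its gene, INA, rose with ASO2 in all 3 lines and the window holds no annotated exon. Of the 10 genes, 6 have a row in the RefSeq promoter table of build GRCh38.p14 (INA, TUBB3, GAP43, PRPH, MAP2 and DCX, with 11 starts in all). STMN2, NEFL, NEFM and MAPT do not. The window covers the 250 bases before the INA start on the plus strand, at chr10:103276888-103277137, with the E-box letters CANNTG in capitals. E-boxes are the short motif read by basic helix-loop-helix factors such as MYCN and HAND2, which is background and not a result.
INA: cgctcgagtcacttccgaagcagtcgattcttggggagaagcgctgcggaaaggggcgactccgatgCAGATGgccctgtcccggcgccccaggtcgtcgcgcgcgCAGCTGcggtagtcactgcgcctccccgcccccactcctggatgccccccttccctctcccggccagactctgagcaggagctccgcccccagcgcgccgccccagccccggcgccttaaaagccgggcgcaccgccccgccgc
The window is 72.8% G and C and holds 30 CpG pairs, where the median over 35114 promoter windows of the same length is 58% and 11. It has 2 E-boxes, a motif present in 61.8% of all windows, and 4 GC boxes (GGGCGG on either strand), present in 42.6%. No base is shared by an E-box and a GC box. The E-box letters read the same on both strands, the GC box was searched on both, and a match is a string of letters, not a bound site. TUBB3, whose change was larger than that of INA in SK-N-BE(2)c and NGP, has 2 listed starts with 9 and 39 CpG pairs and no E-box in either window. The DCX windows hold between 1 and 3 CpG pairs.

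Counts of changed genes have to be read against a broad response, since many genes of all kinds differed from the control. With ASO1 in IMR32, 7 of the 10 genes changed (3 higher, 4 lower) where 28.0% of all genes tested did, 13.6% higher and 14.4% lower. ASO2 in IMR32 changed 4 of 10 (2 higher, 2 lower), against 32.4% of all genes, 17.6% higher and 14.8% lower. In NGP, ASO2 changed 5 of 9 (4 higher, 1 lower) against 58.7% of all genes, 30.6% higher and 28.1% lower. ASO10 there changed 6 of 9 (3 higher, 3 lower) against 54.4%, 26.8% higher and 27.6% lower. In SK-N-BE(2)c, ASO2 changed 8 of 9 (5 higher, 3 lower) against 67.0%, 33.6% higher and 33.4% lower. ASO10 there changed 6 of 9 (2 higher, 4 lower) against 58.9%, 27.8% higher and 31.1% lower. A change here is an adjusted p under 0.05 from limma on log2(normalized count + 1), with Benjamini-Hochberg adjustment over all genes tested, those with a mean of at least 10. All genes analysed in a table passed that filter. Over the 56 comparisons of a gene with the control of its line, 19 were higher, 17 were lower and 20 were not called. Calls that also reached 1 on the log2 scale, in either direction, were few. They were NEFM with ASO1 in IMR32, where 1.28% of all genes were, MAPT with ASO2 in NGP (9.76% of all genes), and TUBB3 and MAPT with ASO2 in SK-N-BE(2)c (13.1%). Between ASOs it was DCX in SK-N-BE(2)c (13.9%). In the other comparisons no gene of the 10 reached it, where the shares of all genes were 1.14% with ASO2 in IMR32, 11.7% with ASO10 in NGP, 10.8% with ASO10 in SK-N-BE(2)c, 0.693% between ASOs in IMR32, 12.9% between ASOs in NGP, and 2.14% and 3.12% between lines for ASO2 and ASO10. With 9 or 10 genes a single gene moves a share by 10 points or more, so the counts describe the list and nothing particular to it is drawn from them.

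The median log2 fold change of the list ran from -0.06 with ASO10 in SK-N-BE(2)c to 0.14 with ASO2 in SK-N-BE(2)c, beside medians of -0.031 and -0.016 over all genes. The 10 genes thus did not shift as one block, and the single genes went different ways. Comparisons within a line share the same control libraries. In bulk RNA, fewer cells of a type and less RNA per cell cannot be told apart. In SK-N-BE(2)c with ASO2, scaling every library to the same total moved the median of all genes by -0.14, and the split of all calls from 50.2% higher and 49.8% lower to 38.4% higher and 61.6% lower. The same scaling moved the split from 41.8% to 59.8% higher for ASO1 against ASO2 in IMR32, from 52.9% to 42.2% higher for ASO2 against ASO10 in SK-N-BE(2)c (a median shift of -0.11), and from 52.5% to 32.9% higher for the ASO2 difference between lines.

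**Figure D2:**
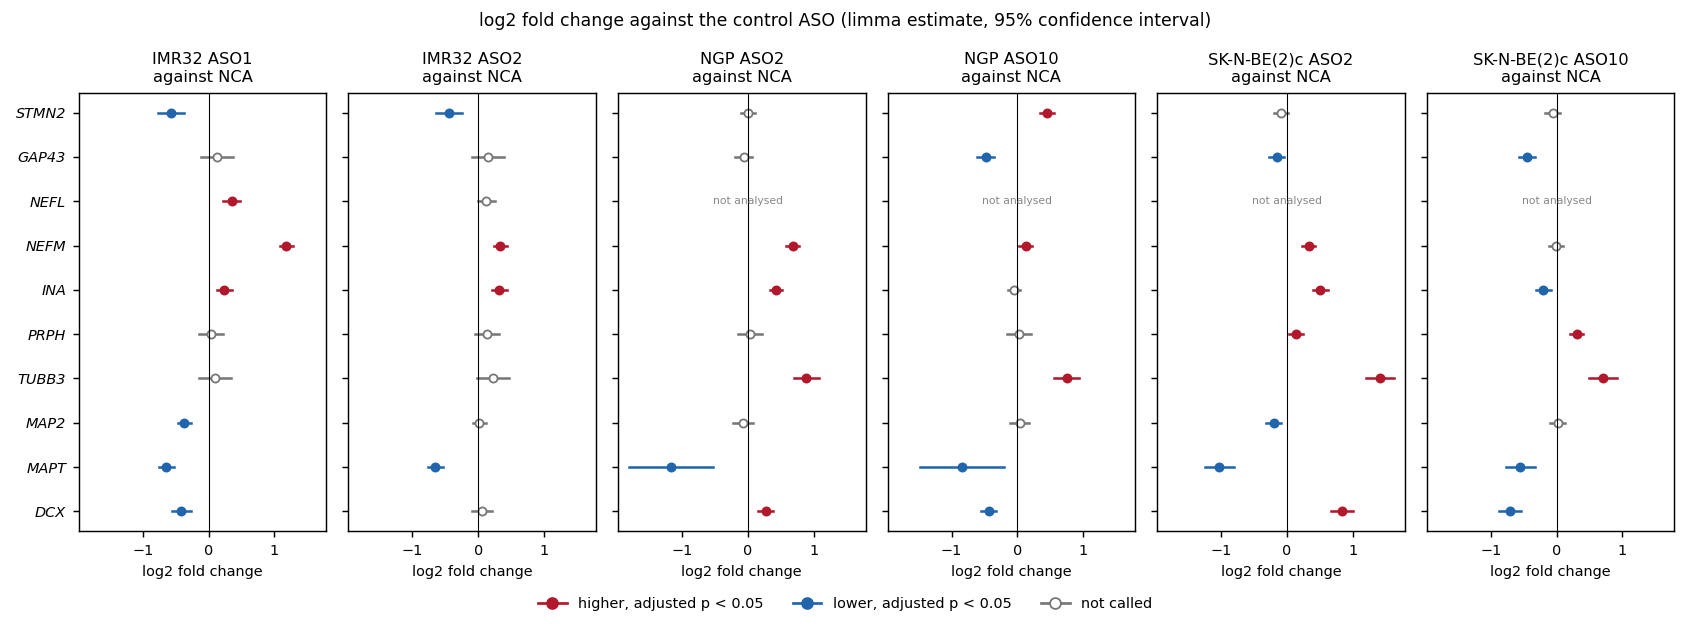
Log2 fold change of each gene against NCA of its line (x axis, limma estimate on log2(normalized count + 1)) with its 95% confidence interval as a bar, one panel per comparison; filled red and blue points have an adjusted p under 0.05. MAPT is to the left of 0 in all 6 panels, and NEFM with ASO1 in IMR32 is farthest right in its panel at 1.18.

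The neuronal intermediate filament genes mostly rose where they changed. NEFM, the medium neurofilament subunit, rose with ASO1 in IMR32, with ASO2 in all 3 lines and slightly with ASO10 in NGP. INA, which encodes alpha-internexin, a filament protein of developing neurons that assembles with the neurofilaments, rose with ASO1 and ASO2 in IMR32 and with ASO2 in the other lines. NEFL, the light subunit on which neurofilaments are built, rose with ASO1 in IMR32, and PRPH, which encodes peripherin, the filament of peripheral neurons, rose in SK-N-BE(2)c. INA with ASO10 in SK-N-BE(2)c was the exception and fell.

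NEFM in IMR32 read 2714, 2494, 2492 and 2461 normalized counts in the 4 controls. With ASO1 the libraries read 5433, 5836, 6151 and 5669, all far above the controls. ASO2 gave 3143, 3192, 3080.1 and 3437, also above every control but below every ASO1 library. The log2 fold change was 1.18 (SE 0.050, adjusted p = 2.35e-12), or 2.27-fold, with ASO1 and 0.34 (SE 0.050, adjusted p = 3.95e-05) with ASO2.

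In NGP, NEFM read 2595, 2693 and 2714 in controls and 4450.4, 4191 and 4182 with ASO2, groups that did not overlap. The log2 fold change was 0.68 (SE 0.049, adjusted p = 1.88e-11). ASO10 libraries lay just above the controls at 2935, 2886 and 2903, with 0.12 (SE 0.049, adjusted p = 0.0352). This small call was lost when ASO10 replicate 1, 2 or 3 or NCA replicate 1 was left out, with adjusted p of 0.0592 to 0.135, where the value ran from 0.11 to 0.13. It was also lost with no filter on low values (0.0706), with no variance trend (0.0817) and with only the compared groups in the fit (0.0519).

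SK-N-BE(2)c had more NEFM than NGP, 10553, 10055 and 11261 in controls, and ASO2 raised it to 12862, 13259 and 13845, a log2 fold change of 0.33 (SE 0.050, adjusted p = 1.5e-06). With ASO10 the libraries at 10632, 10769 and 10215 overlapped the controls, and the fold change of -0.010 had an interval of -0.11 to 0.092. The gene antisense to NEFM, AF106564.1, was at 141 ± 4.66 in IMR32 controls and 155 ± 16.8 with ASO1. In NGP it was at 176 ± 5.35 in controls and 168 ± 10.0 with ASO2, and in SK-N-BE(2)c at 334 ± 52.9 and 279 ± 38.7 (SD). Its counts were far below those of NEFM. Its mean was above the control mean with ASO1 in IMR32 and below it with ASO2 in NGP and SK-N-BE(2)c. How counting treated reads in the shared exon bases is not stated, and their part in the NEFM values was not tested.

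INA showed smaller but regular rises with ASO2. In IMR32 the controls read 2218, 2139, 2058 and 2131, ASO2 libraries 2885, 2758, 2477 and 2571 and ASO1 libraries 2731, 2368, 2419 and 2561. Both ASO groups lay wholly above the controls, with log2 fold changes of 0.32 (SE 0.054, adjusted p = 0.000163) for ASO2 and 0.24 (SE 0.054, adjusted p = 0.0025) for ASO1. NGP libraries read 5827, 5655 and 6062 in controls, 8057, 7617 and 7899 with ASO2 and 5711, 5699 and 5557 with ASO10. Only the ASO2 libraries stood apart there, at 0.43 (SE 0.045, adjusted p = 1.57e-08), while ASO10 was at -0.048 with an interval of -0.14 to 0.046.

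In SK-N-BE(2)c INA went in opposite directions with the 2 ASOs. Controls read 3101, 3028 and 3069, ASO2 libraries 4692, 4250.5 and 4139 and ASO10 libraries 2746, 2569 and 2698. The 3 groups did not overlap, ASO2 being above the controls by 0.51 on the log2 scale (SE 0.054, adjusted p = 3.41e-09) and ASO10 below them at -0.20 (SE 0.054, adjusted p = 0.00252). INA and NEFM were thus higher with ASO2 in all 3 lines, as were 15.0% of the 11594 genes tested in all lines, where 10.2% were lower with ASO2 in every line and 25.2% went one way.

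NEFL in IMR32 read 953, 838, 861 and 813 in controls, 1208, 1065, 1069 and 1089 with ASO1 and 964, 924, 863 and 1023 with ASO2. ASO1 libraries were all above the controls, with a log2 fold change of 0.36 (SE 0.062, adjusted p = 0.000206). ASO2 libraries overlapped them at 0.12 (adjusted p = 0.138, interval -0.0065 to 0.25), and without NCA replicate 1, the highest control, the value was 0.17 with an adjusted p of 0.0399. With replicates 2 to 4 alone it was 0.16 (adjusted p = 0.0127). A gene antisense to NEFL, AC107373.2, shares 11.3% of its exon bases and was at 17.6 ± 3.41 in IMR32 controls.

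PRPH was far higher in SK-N-BE(2)c than in NGP, at 5379 ± 123 and 1092 ± 112 normalized counts in controls (SD, n = 3). It read 5460.2, 5438 and 5237 in SK-N-BE(2)c controls and 6433, 6937 and 6612 with ASO10, groups apart from each other. The log2 fold change was 0.31 (SE 0.049, adjusted p = 4.89e-06). ASO2 libraries at 6047, 6031 and 5676 gave a smaller call of 0.14 (SE 0.049, adjusted p = 0.0156), which fell to 0.00011 (adjusted p = 0.999) when every library was scaled to the same total. It was also lost without ASO2 replicate 1 (adjusted p = 0.0587) or replicate 2 (adjusted p = 0.0676). The gene antisense to PRPH, AC125611.4, was at 31.3 ± 7.77 in SK-N-BE(2)c controls and 26.0 ± 7.08 with ASO10 (SD). In NGP, PRPH read 958 to 1243 over all 9 libraries and its 2 fold changes were 0.031 and 0.021, neither called. IMR32 libraries, at 141 to 185, gave 0.033 with ASO1 and 0.13 with ASO2, also not called.

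Other intermediate filament genes give the setting, and 7 of the 9 listed passed the filter in each line. NEFH, the heavy neurofilament subunit, rose with ASO1 (0.74) and ASO2 (0.39) in IMR32, and under ASO2 in SK-N-BE(2)c (0.22) and NGP (0.42), groups in which NEFM rose. With ASO10 it was at -0.014 in NGP, not called, and fell in SK-N-BE(2)c (-0.12, adjusted p = 0.0442). LMNA, which encodes the nuclear lamins A and C and is no neuronal filament, rose in all 6 comparisons, by 0.26 to 0.70. It was the only gene of that list to do so, where 3.05% of all genes did. Where 15.0% of all genes were higher with ASO2 in all 3 lines, 4 of the 7 genes of this list tested in all lines were. They were NEFH, LMNA, VIM (mesenchymal filament vimentin, 0.48, 0.54 and 0.49 in SK-N-BE(2)c, NGP and IMR32) and LMNB2 (a B-type lamin, 0.74, 0.34 and 0.31), of which VIM and LMNB2 are named after their values were seen.

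**Figure D3:**
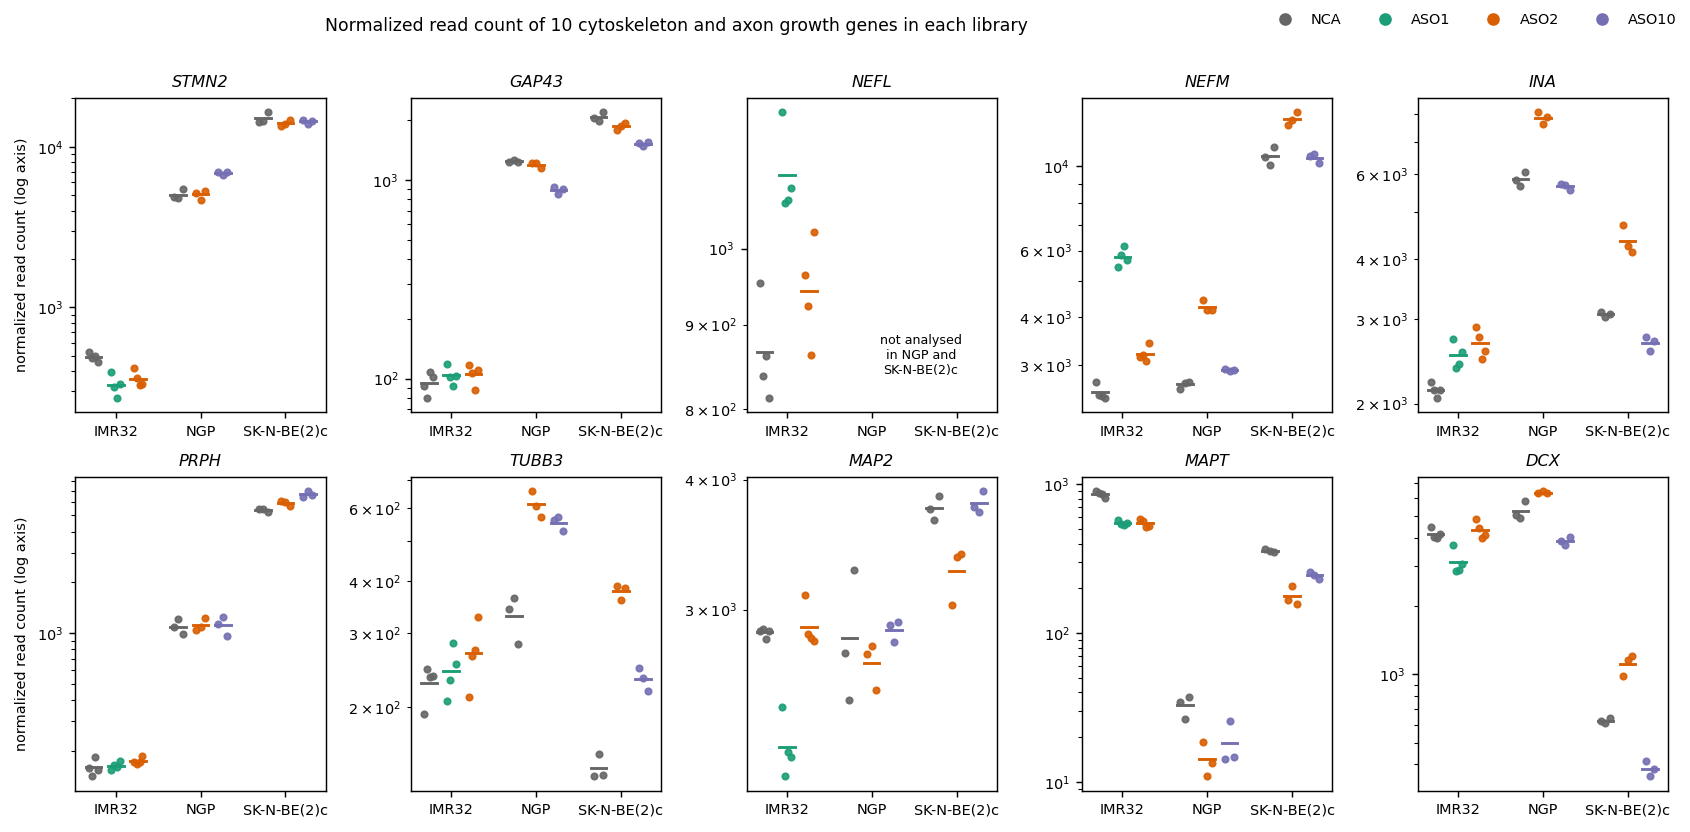
Normalized read count (log axis, a separate scale per gene) of each gene in all 30 libraries; each point is a library and each line the mean of its group, by line and ASO. MAPT libraries of every ASO lie below the controls of their line, and TUBB3 libraries of the ASOs in SK-N-BE(2)c and NGP lie above theirs.

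TUBB3, the beta tubulin isotype found mainly in neurons, rose with both ASOs in SK-N-BE(2)c and NGP. In IMR32 it was not called, and with ASO2 there the call changed with replicate 1 left out. SK-N-BE(2)c controls read 136, 154 and 137, ASO10 libraries 248, 234 and 218 and ASO2 libraries 390.0, 361 and 385. All 3 groups stood apart, with log2 fold changes of 1.41 (SE 0.10, adjusted p = 2.11e-12, 2.65-fold) for ASO2 and 0.71 (SE 0.10, adjusted p = 1.3e-06) for ASO10. The ASO2 rise is the largest of any of the 10 genes against a control in these data.

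NGP controls read 344, 365 and 283, ASO2 libraries 658, 608 and 569.6 and ASO10 libraries 560.4, 572 and 529.6. Both ASO groups were above every control, at 0.89 (SE 0.091, adjusted p = 8.39e-09) and 0.75 (SE 0.091, adjusted p = 1.69e-07) on the log2 scale. IMR32 controls read 192, 247, 236 and 237 and overlapped both ASO1 at 206, 232, 285 and 253 and ASO2 at 211, 265, 274 and 328. Their fold changes were 0.095 (interval -0.15 to 0.34) and 0.23 (interval -0.013 to 0.47), and without ASO2 replicate 1, the lowest ASO2 library, the latter was 0.34 with an adjusted p of 0.02. With replicates 2 to 4 alone in every group it was 0.26 (adjusted p = 0.0127), while ASO1 was at 0.093 (adjusted p = 0.434).

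The gene upstream of TUBB3 on the same strand is MC1R, the melanocortin receptor, and the read-through gene AC092143.1 spans both. AC092143.1 was listed at 0 in all 30 libraries. How counting treated reads in exons shared by these genes is not stated, so this 0 does not show whether read-through RNA was present. MC1R read 192 ± 26.0 in SK-N-BE(2)c controls, 158 ± 9.77 with ASO2 and 89.6 ± 11.8 with ASO10 (SD, n = 3). In NGP it read 63.4 ± 9.58, 57.0 ± 1.74 and 41.2 ± 7.61. Its means were lower in the groups where TUBB3 rose, and no test of MC1R was made. How counting treated reads shared with other tubulin genes is not stated either, so TUBB3 values carry that uncertainty.

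The other tubulin genes went both ways. With ASO2 in NGP, 3 of 13 tested rose (TUBA1C, TUBB6 and TUBE1) and 3 fell (TUBG1, TUBG2 and TUBD1), where 30.6% of all genes rose and 28.1% fell. With ASO2 in SK-N-BE(2)c, 1 of 14 tested rose (TUBE1, epsilon tubulin of centrioles, 0.62) and 7 fell, against 33.6% and 33.4%. ASO10 in SK-N-BE(2)c raised TUBE1 (0.43) and TUBG2 (0.27) while 9 of 14 fell, against 27.8% and 31.1%. In NGP it raised 4 of 13 (TUBB2B, TUBB6, TUBG2 and TUBE1) while 6 fell, against 26.8% and 27.6%. TUBA1A, an alpha tubulin of postmitotic neurons, fell with ASO10 in SK-N-BE(2)c (-0.40) and NGP (-0.42). In IMR32 the 14 values ran from -0.13 to 0.14 with ASO1. The gene named by rule was TUBG2, a gamma tubulin. It fell with ASO2 in all 3 lines (-1.04, -0.94 and -0.19 in SK-N-BE(2)c, NGP and IMR32) and rose with ASO10 in SK-N-BE(2)c and NGP (0.29). Genes named in this paragraph other than TUBG2 were picked after their values were seen.

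MAPT, which encodes tau, the microtubule-associated protein of axons, fell in all 6 comparisons, as did 2.92% of the 11594 genes tested in all 3 lines, while 3.05% rose in all 6 (5.97% went one way throughout). IMR32 controls read 899, 872, 857 and 809, ASO1 libraries 573, 541, 536 and 548 and ASO2 libraries 583, 563, 518 and 522. The lowest control was above the highest ASO library, and the log2 fold changes were -0.64 (SE 0.055, adjusted p = 4.7e-08) and -0.65 (SE 0.055, adjusted p = 7.89e-08). SK-N-BE(2)c controls read 365, 357 and 354, ASO2 libraries 167, 207 and 157 and ASO10 libraries 258, 245 and 232. None of these groups overlapped, and the fold changes were -1.03 (SE 0.11, adjusted p = 2.19e-09) with ASO2 and -0.55 (SE 0.11, adjusted p = 7.85e-05) with ASO10.

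NGP barely expressed MAPT, with 34.6, 26.6 and 36.9 in controls, 18.6, 10.9 and 13.3 with ASO2 and 14.3, 25.7 and 14.8 with ASO10. These are 11 to 38 reads per library, so the fold changes of -1.16 (SE 0.31, adjusted p = 0.00244) and -0.84 (SE 0.31, adjusted p = 0.0242) are imprecise. The ASO10 call was lost without ASO10 replicate 1 (adjusted p = 0.0977), ASO10 replicate 3 (0.0832), NCA replicate 1 (0.0737) or NCA replicate 3 (0.0761), with no filter on low values (0.07) and with DESeq2 on the recovered reads (0.0585). The ASO2 call held in each alternative that tested the gene, with a log2 fold change of -1.36 to -0.98.

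MAPT, MAP2 and DCX span over 100 kb of genome, at 134 kb, 310 kb and 119 kb. Long genes had lower medians than other genes in all 6 comparisons. Genes of at least 100 kb had a median log2 fold change of -0.47 and -0.33 with ASO2 and ASO10 in SK-N-BE(2)c, -0.31 and -0.28 with ASO2 and ASO10 in NGP, and -0.18 and -0.13 with ASO1 and ASO2 in IMR32. Shorter genes had medians of 0.012 to 0.072 over the same 6 comparisons. MAPT lay below the long-gene median in all 6, MAP2 below it with ASO1 in IMR32 alone, and DCX above it with ASO2 in all 3 lines but below it in the other 3 comparisons. The part of gene length in these results was not tested.

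MAP2, the microtubule-associated protein of dendrites and cell bodies, was called in 2 of the 6 comparisons. It fell with ASO1 in IMR32, where controls read 2861, 2875, 2809 and 2862 and ASO1 libraries 2419, 2073, 2189 and 2165, all below them, for a log2 fold change of -0.37 (SE 0.050, adjusted p = 1.15e-05). ASO2 in IMR32, at 3099, 2841, 2817 and 2801, was at 0.018 with an interval of -0.086 to 0.12. In SK-N-BE(2)c controls read 3748, 3661 and 3861 and ASO2 libraries 3029, 3372 and 3392, a fall of 0.20 on the log2 scale (SE 0.053, adjusted p = 0.0014). ASO10 libraries there overlapped the controls at 0.015 (interval -0.095 to 0.12). In NGP neither ASO was called, at -0.071 and 0.036, but the controls were spread at 2724, 2456 and 3278, and single controls decided the call. Without NCA replicate 2 the ASO2 value was -0.17 (adjusted p = 0.0329), and without NCA replicate 3 the ASO10 value was 0.15 (adjusted p = 0.0246).

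DCX, which encodes doublecortin, a microtubule-associated protein of migrating and immature neurons, went in opposite directions with ASO2 and ASO10. SK-N-BE(2)c controls read 621, 610.0 and 641, ASO2 libraries 985, 1152 and 1206 and ASO10 libraries 414, 354 and 383. All 3 groups stood apart, at 0.83 (SE 0.081, adjusted p = 5.35e-10) for ASO2 and -0.70 (SE 0.081, adjusted p = 2.15e-08) for ASO10. NGP controls read 5072, 4877 and 5830.3, ASO2 libraries 6295, 6429.7 and 6294 and ASO10 libraries 3896, 3717 and 4023. Here too no group overlapped another, with 0.27 (SE 0.056, adjusted p = 0.000168) for ASO2 and -0.44 (SE 0.056, adjusted p = 3.57e-07) for ASO10.

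In IMR32, DCX fell with ASO1 and was not called with ASO2. Controls read 4474, 4020.2, 3993 and 4159.8, ASO1 libraries 3721, 2864, 2897 and 3071 and ASO2 libraries 4828, 4416, 4007 and 4122. ASO1 was at -0.41 (SE 0.072, adjusted p = 0.000191), and ASO2 at 0.059 had an interval of -0.090 to 0.21. The doublecortin-like kinases, close relatives that also bind microtubules, fell instead in all 6 comparisons. DCLK1 ran from -0.86 to -0.22 and DCLK2 from -1.23 to -0.30, the latter falling most with ASO2 in NGP, and they span 363 kb and 179 kb.

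The listed microtubule-associated and tubulin-folding genes, doublecortin-like kinases included, moved both ways. With ASO1 in IMR32, 6 of 37 rose and 15 fell (13.6% and 14.4% of all genes), and with ASO2 11 rose and 8 fell (17.6% and 14.8%). NGP had 15 of 35 higher and 14 lower with ASO2 (30.6% and 28.1%), and 8 higher and 14 lower with ASO10 (26.8% and 27.6%). SK-N-BE(2)c had 14 of 36 higher and 16 lower with ASO2 (33.6% and 33.4%), and 13 each way with ASO10 (27.8% and 31.1%). The list median lay between -0.13 and 0.16, where the median of all genes lay between -0.031 and 0.009. Besides the doublecortin-like kinases, the genes changed one way in all 6 comparisons were CAMSAP1, which protects microtubule minus ends (0.18 to 0.85), and KATNA1, the catalytic subunit of the severing enzyme katanin (0.25 to 0.70). Both rose, so 2 of 35 genes rose and 2 fell in all 6, beside 3.05% and 2.92% of all genes.

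The largest difference in any of these lists was that of MAP7D2, a microtubule-associated protein that recruits kinesin, named after its values were seen. NGP controls read 1.82, 5.32 and 3.08 normalized counts, ASO2 libraries 0.93, 10.9 and 10.0, and ASO10 libraries 130.4, 135 and 120.3. SK-N-BE(2)c controls read 2.09, 0 and 0, ASO2 libraries 4.42, 7.25 and 1.20, and ASO10 libraries 63.2, 67.5 and 77.4. With ASO10 a gene with 0 to 6 reads per control library thus had 66 to 142 reads in every library of both lines. The log2 fold changes of 4.96 (adjusted p = 4.88e-09) and 5.59 (adjusted p = 1.79e-09) depend on the pseudocount. In both lines MAP7D2 reached the filter mean of 10 through its ASO10 libraries, since its control and ASO2 groups each averaged less. It was also picked for its size, so these p-values are not read as a test. IMR32, which had no ASO10, expressed MAP7D2 at 567 to 599.7 in controls, and it fell with ASO1 (-0.42) and ASO2 (-0.31).

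STMN2, which encodes stathmin-2, a tubulin-binding protein of growing axons, fell in IMR32 and rose with ASO10 in NGP. IMR32 controls read 524, 482, 498 and 456, ASO1 libraries 395, 321, 274 and 333 and ASO2 libraries 421, 361, 328 and 331. Every ASO library was below every control, at -0.58 (SE 0.094, adjusted p = 9.89e-05) and -0.45 (SE 0.094, adjusted p = 0.00112). NGP controls read 4857, 4817 and 5442, ASO10 libraries 6985, 6696 and 6919 and ASO2 libraries 5182, 4685 and 5268. Only the ASO10 libraries stood above the controls, at 0.45 (SE 0.054, adjusted p = 1.33e-07), while ASO2 was at 0.0023 with an interval of -0.11 to 0.11.

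SK-N-BE(2)c had more STMN2 than NGP, 14262, 14424 and 16344 in controls. ASO2 libraries at 13514, 13932 and 14678 and ASO10 libraries at 14753, 13804 and 14559.9 overlapped them. The fold changes of -0.094 (interval -0.20 to 0.014) and -0.060 (interval -0.17 to 0.048) were not called. With every library at the same total, where all genes shift by -0.14, the ASO2 value was -0.23 (adjusted p = 0.000275), and without NCA replicate 1 it was -0.13 (adjusted p = 0.044).

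The related stathmin genes were mostly higher where they were called. STMN3, the neuronal stathmin that the rule for lists names, rose in 5 of the 6 comparisons, by 0.27 to 0.42, and was at 0.0059 with ASO1 in IMR32. STMN1, the widely expressed stathmin of dividing cells, was named after its values were seen. It rose with ASO2 in NGP (0.18) and SK-N-BE(2)c (0.31) and fell with ASO10 in SK-N-BE(2)c (-0.26). STMN4 was called in NGP with ASO2 alone (0.26, adjusted p = 0.046).

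GAP43, a membrane-bound protein of growth cones and regenerating axons, fell with ASO10 in both lines that received it. NGP controls read 1234, 1253 and 1234 and ASO10 libraries 917, 846 and 898, a log2 fold change of -0.48 (SE 0.062, adjusted p = 3.58e-07). In SK-N-BE(2)c the controls read 2045, 1982 and 2180.1 and ASO10 libraries 1536, 1475 and 1543, at -0.45 (SE 0.058, adjusted p = 1.73e-07). In both lines the ASO10 libraries lay wholly below the controls.

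With ASO2, GAP43 stood closer to the controls. In SK-N-BE(2)c it gave 1776, 1860.1 and 1923 and -0.16 (adjusted p = 0.0173), a call lost without ASO2 replicate 1 (adjusted p = 0.0826) or NCA replicate 3 (adjusted p = 0.0871). NGP libraries with ASO2 read 1213, 1211 and 1141, just under all controls, at -0.062 and not called. IMR32 expressed GAP43 at 80.2 to 118.6 in its 12 libraries, and the values of 0.12 with ASO1 and 0.15 with ASO2 were not called. Among the other growth cone and cortical actin genes, EVL, an actin-filament elongating protein, was the gene the rule names. It fell in IMR32 (-0.37 with ASO1, -0.35 with ASO2) and with ASO2 in NGP (-1.02) and SK-N-BE(2)c (-1.19), and was not called with ASO10.

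The ASOs of a line were also compared directly. In IMR32, 4 of 10 genes differed between ASO1 and ASO2, as did 21.9% of all genes (9.17% higher and 12.8% lower with ASO1). With ASO1, NEFM (0.84) and NEFL (0.23) were higher than with ASO2, and DCX (-0.47) and MAP2 (-0.39) were lower, the largest adjusted p being 0.0102. The fall of MAPT did not differ detectably between these ASOs, at 0.0089 with an interval of -0.11 to 0.12, nor did that of STMN2, at -0.13 with an interval of -0.32 to 0.067.

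In NGP, 5 of 9 genes differed between ASO2 and ASO10, against 58.6% of all genes (30.6% higher and 28.0% lower with ASO2). DCX (0.71), NEFM (0.55), INA (0.47) and GAP43 (0.42) were higher with ASO2, and STMN2 (-0.45) was lower. TUBB3 at 0.14 had an interval of -0.046 to 0.33 and MAPT at -0.32 one of -0.96 to 0.32, too wide to place either. SK-N-BE(2)c differed in 8 of 9, against 65.4% of all genes (34.6% higher and 30.8% lower). DCX again differed most, at 1.53 (2.90-fold, adjusted p = 1.71e-15), followed by INA (0.71), TUBB3 (0.70), NEFM (0.34) and GAP43 (0.29), all higher with ASO2. MAPT (-0.48), MAP2 (-0.22) and PRPH (-0.17) were lower with ASO2. STMN2, at -0.034, was not called.

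Whether an ASO acted alike in SK-N-BE(2)c and NGP was tested as a difference of differences over their 18 libraries. For ASO2, 3 of 9 genes differed, against 16.7% of all genes (8.79% higher and 7.95% lower). Its rise was larger in SK-N-BE(2)c for DCX by 0.56 (SE 0.10, adjusted p = 0.000552) and TUBB3 by 0.51 (SE 0.13, adjusted p = 0.0102), and smaller for NEFM at -0.35 (SE 0.065, adjusted p = 0.000701). For ASO10, 1 of 9 differed, against 16.9% of all genes (8.09% higher and 8.78% lower). That was STMN2 at -0.51 (SE 0.082, adjusted p = 0.000177), which rose in NGP and was not called in SK-N-BE(2)c. With edgeR on the recovered reads the ASO10 count was 3, with DCX (-0.28, adjusted p = 0.0477) and PRPH (0.27, adjusted p = 0.0494) added. GAP43, at 0.038 with an interval of -0.11 to 0.19, and MAPT, at 0.30 with an interval of -0.32 to 0.91, were not called.

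**Figure D4:**
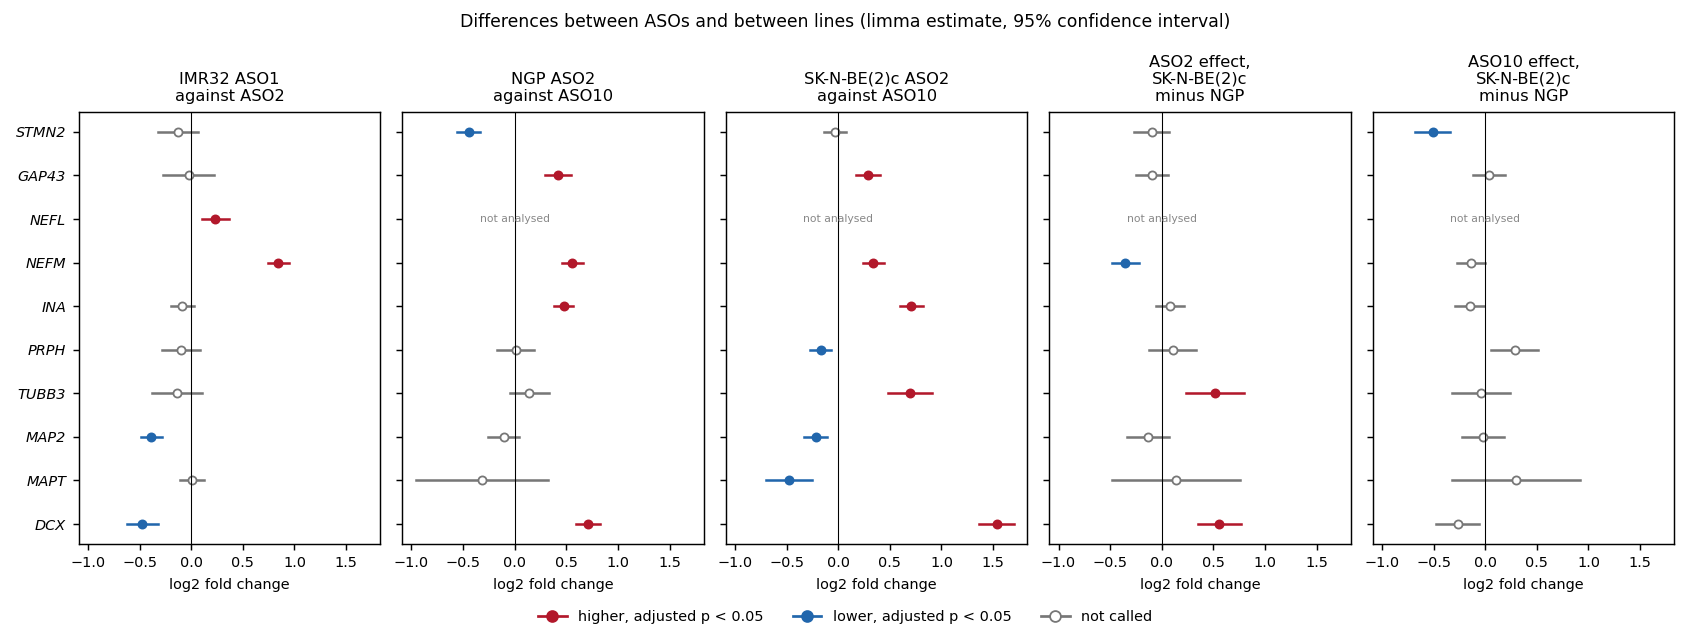
Log2 difference of each gene (x axis, limma estimate with its 95% confidence interval) between the 2 ASOs of each line in the first 3 panels, and between lines in its ASO2 and ASO10 effect in the last 2; filled points have an adjusted p under 0.05. DCX in SK-N-BE(2)c, at 1.53, is the farthest point from 0.

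Genes for transport along microtubules and for axon guidance were counted in the same comparisons. Of the 21 axonal transport motors tested, 28.6% changed with ASO1 in IMR32 and 9.52% with ASO2, beside 28.0% and 32.4% of all genes. NGP had 81.0% changed with ASO2 and 61.9% with ASO10, beside 58.7% and 54.4%. For SK-N-BE(2)c these shares were 81.0% and 71.4%, beside 67.0% and 58.9%. The list median ran from -0.13 to 0.044, beside -0.031 to 0.009 over all genes. KIF1A, a kinesin that carries synaptic vesicle precursors along axons, was the gene the rule names. It fell with ASO1 in IMR32 (-0.35), was at 0.013 with ASO2 there, and rose in NGP with ASO2 (0.62) and ASO10 (0.78) and in SK-N-BE(2)c with ASO2 (0.53) and ASO10 (1.27).

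Axon adhesion and guidance genes fell more often than they rose in each comparison. In IMR32, 24 of 47 fell with ASO1 and 23 of 47 with ASO2, where 14.4% and 14.8% of all genes fell. In NGP 24 of 45 fell with ASO2 and 22 of 45 with ASO10, against 28.1% and 27.6% of all genes, and in SK-N-BE(2)c 22 of 38 and 16 of 38, against 33.4% and 31.1%. Those that rose numbered 4 (PLXNA2, EPHB3, EFNA3 and EFNB2) and 7 in IMR32, where 13.6% and 17.6% of all genes rose. In NGP they numbered 11 and 8, against 30.6% and 26.8%. In SK-N-BE(2)c they numbered 11 and 5 (PLXNA1, PLXNB1, SEMA4C, SEMA6C and EFNB2), against 33.6% and 27.8%. These names, apart from EFNB2, were taken after their values were seen. The list medians ran from -0.36 to -0.15, beside -0.031 to 0.009 over all genes. Of 35 genes tested in all lines, 6 fell in all 6 comparisons and 1, EFNB2, a transmembrane ephrin, rose (0.26 to 1.38), beside 2.92% and 3.05% of all genes. By size the leading falls were the netrin receptor UNC5C (-1.36 to -0.23), the contactin CNTN1 (-1.01 to -0.44) and the slit receptor ROBO1 (-1.40 to -0.16). These 3 genes span 387 kb, 380.0 kb and 1171 kb, and EFNB2 spans 45.9 kb. The part of length was not tested.

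Of the collapsin response mediators, cytosolic proteins that pass guidance signals to microtubules, DPYSL3 was the gene named by rule. It rose with ASO2 in SK-N-BE(2)c (0.54), NGP (0.54) and IMR32 (0.34) and with ASO10 in NGP (0.19). It was not called with ASO1 in IMR32, where 0 of the 5 listed genes rose and 2 fell (13.6% and 14.4% of all genes). ASO2 there had 2 higher and 0 lower (17.6% and 14.8%). NGP had 3 higher and 1 lower with ASO2 (30.6% and 28.1%), and 2 each way with ASO10 (26.8% and 27.6%). SK-N-BE(2)c had 1 higher and 2 lower with ASO2 (33.6% and 33.4%), and the same with ASO10 (27.8% and 31.1%). Enzymes that act on tau and doublecortin included 21 genes tested in all lines, 1 of which rose in all 6 comparisons and 2 of which fell, beside 3.05% and 2.92% of all genes. STK11, a kinase upstream of axon-specifying kinases, rose by 0.18 to 0.76. PPP2R2B, a neuronal regulatory subunit of the phosphatase that removes phosphate from tau, fell to between -1.23 and -0.61. The kinase FYN, which binds tau, fell to between -1.17 and -0.15. PPP2R2B and FYN span 504 kb and 213 kb, and STK11 spans 50.9 kb. The part of length was not tested here either.

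**Figure D5:**
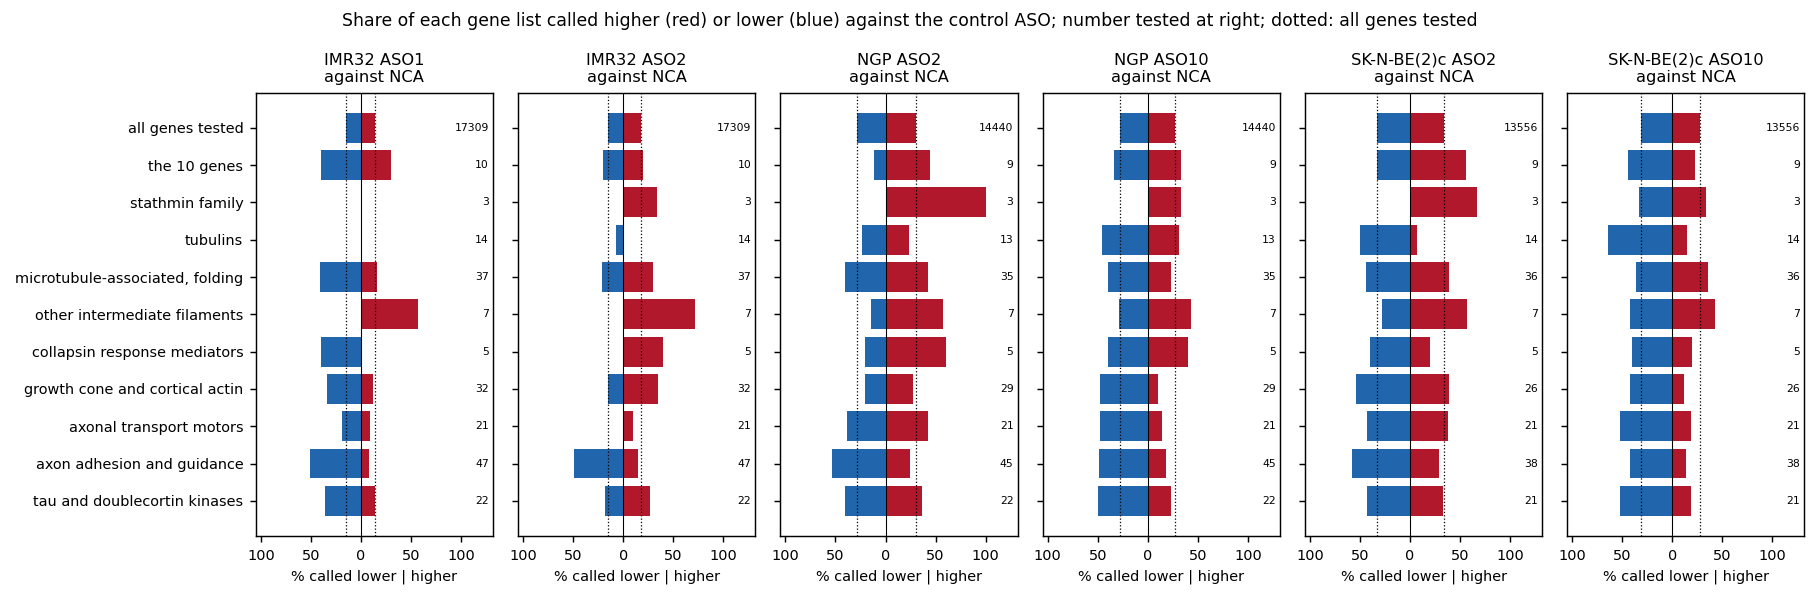
Share of each gene list called higher (red, to the right) or lower (blue, to the left) against NCA in the 6 comparisons, in percent of genes tested, with the number tested at the right and dotted lines at the shares of all genes tested. The axon adhesion and guidance bar passes the dotted line on the lower side in all 6 panels, for example 24 of 47 genes with ASO1 in IMR32.

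For each of the 9 genes tested in all lines, so not for NEFL, the 2 genes most like it across libraries were found by the smallest of its 3 within-line correlations (Pearson, log2 scale, 12 libraries in IMR32 and 9 in each other line, 11594 genes searched). The libraries of a group share their treatment, so these values describe the pattern and carry no test. DCX was most like SATB1 (0.95) and TMED10 (0.95), and INA most like OAT (0.96) and RAD23B (0.95). NEFM was most like ANKRD13A (0.94) and then NEFH (0.93), the only match that is itself a filament gene. MAPT was closest to TMEM135 (0.90) and CLEC16A (0.895), and TUBB3 to MADD (0.83) and SNHG11 (0.83). GAP43 was closest to MIX23 and VIPAS39 (0.785 each), MAP2 to ST6GAL1 (0.775) and ABLIM1 (0.75), STMN2 to GDPD1 (0.73) and ZNF638 (0.68), and PRPH to ZNF48 (0.65) and ZBTB17 (0.64). None of these 9 genes was among the 2 closest to another.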

How the data were processed

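RNA from 30 libraries was sequenced. Per the submitters' processing notes, the tools were FastQC 0.11.8, cutadapt 1.18, STAR 2.6.0, HTSeq 0.6.1 and DESeq2 1.42.0 with hg19. The deposited values are a signal made by the authors, gene counts divided by a size factor for each library. Whole reads were recovered from them (100% of values whole within 0.1). Symbols were matched to gene identifiers with GENCODE 29 and exon lengths taken from it, so no gene coordinates are printed. The values held 62710 gene identifiers in IMR32, and 57905 each in NGP and SK-N-BE(2)c. IMR32 entries without a gene identifier (0.172% of values) were left out, and 0 sample columns were unused.

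The tests used limma 3.58.1 (R 4.3.3) on log2(value + 1) with a variance trend, a mean of at least 10 and no replicate block. Each line was fitted with its 3 groups, and NGP and SK-N-BE(2)c together for differences between lines. Benjamini-Hochberg adjustment ran over all genes tested, with calls at 0.05 and intervals at 95%. The script was tested on simulated data. Alternatives were other pseudocounts, filters, scalings and fits, leaving out each library (and, added after seeing the data, the 3 IMR32 libraries of replicate 1 together), and edgeR 4.0.16 and DESeq2 1.42.0 on the recovered reads. Named genes outside the 10 are those called one way in all 6 comparisons with NCA (at most 3 per list and direction, by mean size), or, where a list has none, the gene with the smallest geometric mean of its adjusted p-values. The 10 genes and the lists were chosen with earlier results of these data known. NESPR itself was not analysed.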

Additional observations from a re-analysis of the deposited data

Results flagged for a closer look

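Each of the 10 genes was checked in the 3 groups of 4 IMR32 libraries. In 3 of these 30 cases 1 library stood apart from the other 3, where chance alone gives about 1 in 20. In each of the 3 it was replicate 1. NEFL read 1208 in IMR32 ASO1 replicate 1, above 1065 to 1089 in the other ASO1 libraries. NEFM read 2714 in IMR32 NCA replicate 1, above 2461 to 2494 in the other controls, and MAP2 read 3099 in IMR32 ASO2 replicate 1, above 2801 to 2841. With that library left out, NEFL with ASO1 against NCA was 0.31 (adjusted p = 0.000468, limma), NEFM with ASO1 against NCA was 1.22 (adjusted p = 1.16e-12), and MAP2 with ASO2 against NCA went from 0.018 to -0.016, not called either way.

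The effect of an ASO differed between SK-N-BE(2)c and NGP in 4 cases by the test of that difference. For ASO2 the log2 difference was 0.56 for DCX (adjusted p = 0.000552), 0.51 for TUBB3 (adjusted p = 0.0102) and -0.35 for NEFM (adjusted p = 0.000701). DCX and TUBB3 rose more in SK-N-BE(2)c, and NEFM rose more in NGP. For ASO10 it was -0.51 for STMN2 (adjusted p = 0.000177).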

How the results depend on the processing

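Of 2013 single-gene values under the alternatives, 1875 kept their direction and their side of the threshold, 71 lost a call, 20 gained one and 47 changed sign. All 47 belong to values that were not called, with a largest size of 0.092 and a smallest adjusted p of 0.277. The count of genes called moved by over 1.5 times in few settings. Asking also for a log2 fold change of at least 1 left 1 gene with ASO1 in IMR32 (NEFM), 1 with ASO2 in NGP (MAPT), 2 with ASO2 in SK-N-BE(2)c (TUBB3 and MAPT) and 1 for ASO2 against ASO10 in SK-N-BE(2)c (DCX), and 0 in each of the other 7 comparisons, as the setting asks for more than their size. For the ASO10 difference between lines the count of 1 became 3 with edgeR and 2 with DESeq2. The cause was not tested.

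Leaving out 1 library at a time gave counts of 7 to 7 (IMR32 ASO1), 4 to 5 (IMR32 ASO2), 4 to 4 (ASO1 against ASO2), 5 to 6 (NGP ASO2), 4 to 6 (NGP ASO10), 5 to 5 (ASO2 against ASO10 in NGP), 6 to 9 (SK-N-BE(2)c ASO2), 6 to 6 (SK-N-BE(2)c ASO10), 8 to 8 (ASO2 against ASO10 there), 3 to 4 (ASO2 difference between lines) and 1 to 3 (ASO10 difference). The latter was 3 without NGP NCA replicate 3, and 2 without NGP ASO10 replicate 2 or SK-N-BE(2)c ASO10 replicate 1.

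Replicate numbers were taken to share only a number, since deviations of same-numbered libraries did not correlate above 0.1 for every number in any pair of groups (range -0.065 to 0.33). In IMR32, however, replicate 1 correlated across the 3 groups (0.26 to 0.33), as did replicate 3 (0.11 to 0.16), while replicates 2 and 4 were between -0.0057 and 0.055. With the replicate block the counts were 8, 6 and 8 in SK-N-BE(2)c, 5, 6 and 5 in NGP, 3 and 1 between lines, and 7, 6 and 4 in IMR32 (ASO1, ASO2, ASO1 against ASO2), where TUBB3 (0.23, adjusted p = 0.0105) and NEFL (0.12, adjusted p = 0.0255) with ASO2 were added. The other counts equal those without the block. Leaving out replicate 1 of every IMR32 group together, chosen after seeing the data, gave 7, 6 and 4, with TUBB3 and NEFL again added for ASO2, and changed the sign of MAP2 with ASO2 (-0.015). Calls over all genes rose as well, from 4850, 5607 and 3795 to 5719, 6623 and 5019 in the same order, so a gain in calls was general.

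With the same total in every library the sign changed for MAP2 (IMR32 ASO2 against NCA, -0.016), GAP43 (IMR32 ASO1 against ASO2, 0.031), STMN2 (NGP ASO2 against NCA, -0.068), PRPH (NGP ASO2 against NCA, -0.038), PRPH (NGP ASO2 against ASO10, -0.049) and MAP2 (SK-N-BE(2)c ASO10 against NCA, -0.011). TMM factors changed it for STMN2 (NGP ASO2 against NCA, -0.00657), PRPH (NGP ASO2 against ASO10, -0.016) and NEFM (SK-N-BE(2)c ASO10 against NCA, 0.018). edgeR changed it for STMN2 (NGP ASO2 against NCA, -0.00653), PRPH (NGP ASO2 against ASO10, -0.022) and NEFM (SK-N-BE(2)c ASO10 against NCA, 0.016). DESeq2 changed it for STMN2 (NGP ASO2 against NCA, -0.00193), PRPH (NGP ASO2 against ASO10, -0.020) and NEFM (SK-N-BE(2)c ASO10 against NCA, 0.028). A pseudocount of 5 changed it for MAPT (ASO2 difference between lines, -0.031). Leaving out 1 library changed the sign within these ranges of log2 values. For IMR32 ASO1 against NCA they were PRPH -0.024 to 0.11. For IMR32 ASO2 against NCA they were MAP2 -0.016 to 0.032. For IMR32 ASO1 against ASO2 they were MAPT -0.016 to 0.041 and GAP43 -0.11 to 0.034. For NGP ASO2 against NCA they were STMN2 -0.030 to 0.059, PRPH -0.041 to 0.11 and MAP2 -0.17 to 0.042. For NGP ASO10 against NCA they were PRPH -0.064 to 0.12 and MAP2 -0.059 to 0.15. For NGP ASO2 against ASO10 they were PRPH -0.092 to 0.10. For SK-N-BE(2)c ASO10 against NCA they were NEFM -0.049 to 0.033, MAP2 -0.0048 to 0.034 and STMN2 -0.10 to 0.0024. For the ASO2 difference between lines they were MAPT -0.030 to 0.33. For the ASO10 difference between lines they were MAP2 -0.13 to 0.073 and TUBB3 -0.12 to 0.068.

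Reads limit MAPT in NGP, at 11 to 38 per library. NEFL was analysed in 1 line.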
